A study of Mus musculus with 6 samples.

Results

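Genes of the prostaglandin E2 pathway were examined in mammary tumours of mice given the drug DPM or vehicle. The set held 10 genes, the cyclooxygenases Ptgs1 and Ptgs2, the E synthases Ptges and Ptges2, the receptors Ptger1 to Ptger4, the degrading enzyme Hpgd and the uptake carrier Slco2a1. A probe set that the array's annotation ties to that gene alone was found for 9 of the 10, 1 probe set each, and Ptgs1 was not analysed here. All 9 passed the filter on mean level, among 14953 genes tested of 19938 named. The genes were listed by role, with earlier results of these data known.

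Prostaglandins are short-lived lipid signals made from arachidonic acid, which phospholipases free from membranes. Cyclooxygenases turn it into a common precursor, from which terminal synthases make each prostaglandin, and prostaglandin E2 then acts on nearby cells through a family of G protein-coupled receptors. The carrier Slco2a1 takes it up and the dehydrogenase Hpgd inactivates it. In mammary cancer the inducible cyclooxygenase, COX-2, encoded by Ptgs2, is known for its links to inflammation, blood vessel growth and tumour growth.

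RNA came from 6 tumours of female FVB mice carrying MMTV-PyMT, the polyoma middle T oncogene under a viral promoter active in mammary epithelium, so both groups carried the oncogene. The 3 DPM tumours were from mice dosed at 10 mg/kg into the peritoneum, 5 days on and 2 days off, and the 3 vehicle tumours from mice given vehicle on that schedule. Dosing ran for 11 weeks from 4 weeks of age, and all mice were aged 15 weeks at the end. DPM is taken here to be dipyridamole, which blocks cellular uptake of nucleosides and the enzymes that break down cyclic AMP and cyclic GMP. That reading comes from outside the labels. The labels call the tumours of each group biological replicates and do not tie them to numbered animals. The p-values thus set each group difference against a spread estimated from these tumours. Tumours sharing a mouse could not be told from tumours of separate mice.

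The 1-colour array intensities had deposited medians of 270 to 301 per array, and the arrays numbered 3 in both groups had the highest upper quartiles, 869 and 887 against 717 to 748 on the others. After normalisation between arrays all 15 pairs of arrays correlated at 0.968 to 0.987 across genes. The 8 luminal epithelial markers averaged 12.03 to 12.26 (log2) in DPM and 12.08 to 12.29 in vehicle tumours. Singly they went both ways, from 0.32 log2 units higher in DPM for Elf5 to a difference of -0.42 for Krt19. Means were higher in DPM for 2 and lower for 6, where 49.7% of all genes were lower. Levels below are log2 intensities after quantile normalisation, and differences are DPM minus vehicle on that scale. No level is set against that of another gene, since probe sets differ in how brightly they bind. These are whole tumour pieces, in which fewer cells of a type and less RNA per cell cannot be told apart.

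Between the treatments, no member reached significance (0 of 9 at an adjusted p under 0.05 in limma, where 0% of all genes tested passed). Ptgs2 had the largest difference of the 9, with a mean in DPM tumours at 0.538 times the vehicle level. The receptor gene Ptger4 and the breakdown gene Hpgd also had lower means under DPM, and the uptake gene Slco2a1 had a higher one. At an unadjusted p under 0.05 there were 3 of the 9, Ptgs2, Ptger4 and Hpgd, beside 3.87% of all genes tested. The groups did not overlap at all for 2 of the 9, Ptgs2 and Ptger4, both lower in DPM, beside 6.97% of all genes in either direction, 3.48% toward lower and 3.49% toward higher values. The remaining 7 overlapped. Of the 9, 6 had the lower mean in DPM tumours, beside 49.7% of all genes. The members' median difference was -0.06, against 0.00055 over all genes tested.

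**Figure D1:**
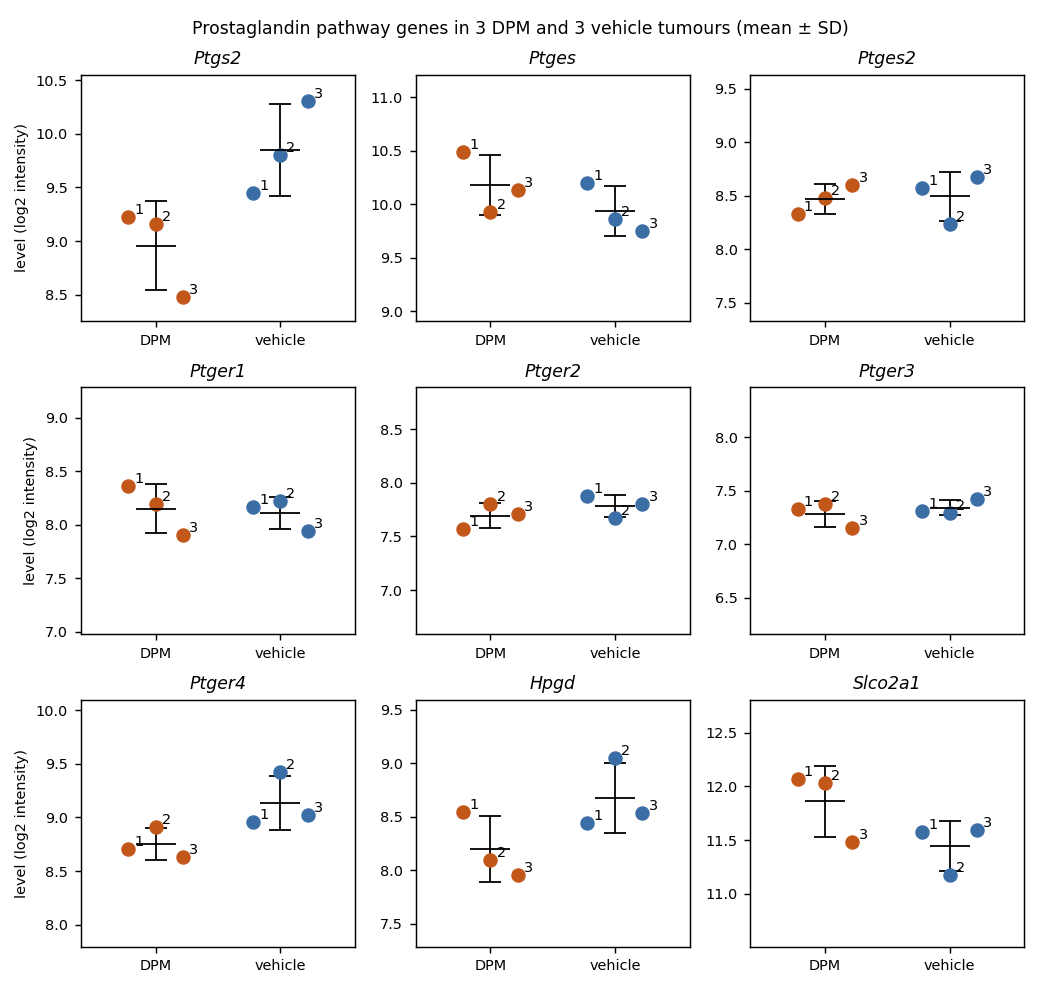
Log2 intensity of each of the 9 genes in 3 DPM tumours (orange) and 3 vehicle tumours (blue), numbered by replicate, with the mean and SD as black bars. Every panel spans the same number of log2 units, so the spreads can be compared. Ptgs2 and Ptger4 are the genes whose groups do not overlap.

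Ptgs2, the inducible cyclooxygenase that starts prostaglandin synthesis (probe set 10350516), stood at 9.23, 9.16 and 8.48 in DPM replicates 1 to 3 and at 9.45, 9.80 and 10.30 in vehicle replicates 1 to 3. Every vehicle tumour was above every DPM tumour, with DPM replicate 3 the lowest and vehicle replicate 3 the highest of the 6. The group means were 8.96 ± 0.41 and 9.85 ± 0.43 (SD, n = 3 each). Their difference was -0.89 (SE 0.26, 95% interval -1.49 to -0.30), which did not pass over all genes (limma adjusted p = 0.9996). The gap between the nearest tumours of the groups, 9.23 and 9.45, was narrower than the spread within either group.

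Ptgs2 was also the most variable member within groups. Its SD within groups, 0.422, exceeded that of 97.1% of the genes tested, whose median was 0.135, and its 6 values spanned a 3.54-fold range. Of the 14953 genes, 17 had a difference farther below 0, and 114 had a smaller unadjusted p. The tumours at both ends were those numbered 3, on the arrays with the highest upper quartiles. Without both of these the difference was -0.43 (SE 0.15, limma adjusted p = 1), less than the 0.89 seen with all arrays by over 1.5 times. Leaving out 1 array at a time gave differences from -1.10 to -0.66.

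The start of Ptgs2 lies on chromosome 1 of GRCm38.p6 and that of Ptger4 on chromosome 15, and the 250 bases before each RefSeq start are shown because these were the genes whose groups did not overlap. The Ptgs2 window is chr1:150099781-150100030 on the plus strand and the Ptger4 window chr15:5244188-5244437 on the minus strand. Capitals mark the palindrome TTGCGCAA, a strong site for C/EBP factors.
Ptgs2: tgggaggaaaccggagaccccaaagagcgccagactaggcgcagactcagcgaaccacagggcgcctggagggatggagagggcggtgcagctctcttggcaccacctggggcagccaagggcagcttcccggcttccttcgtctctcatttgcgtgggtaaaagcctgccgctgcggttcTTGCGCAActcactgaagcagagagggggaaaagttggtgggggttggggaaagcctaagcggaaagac
Ptger4: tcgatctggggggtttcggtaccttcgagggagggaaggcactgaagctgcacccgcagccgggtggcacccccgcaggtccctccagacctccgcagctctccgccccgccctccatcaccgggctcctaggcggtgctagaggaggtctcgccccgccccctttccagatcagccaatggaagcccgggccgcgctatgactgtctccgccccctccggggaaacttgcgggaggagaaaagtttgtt

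In windows of 300 bases, these and the next 50 included, both strands were searched for ACGTCA (the core of the cyclic AMP response element), TTGCGCAA, CACGTG (the E-box), TGANTCA (AP-1), TATAAA (the TATA box) and the NF-kB motif. The Ptgs2 window held TTGCGCAA at -69 to -62 from the start, a word found in 0.183% of 32851 RefSeq windows of that length. Just after its RefSeq start it held ACGTCA at 13 to 18, in 7.51% of windows, and CACGTG at 17 to 22, in 7.15%, which share a pair of bases. Positions count from the RefSeq start, which was not checked against the place where transcription begins. The Ptger4 window held none of these motifs. Among the other members, Hpgd held TATAAA at 5 to 10 and Slco2a1 at -29 to -24, a word in 13.6% of windows, and Ptges2 held CACGTG at -77 to -72. A match describes the sequence and does not show that a factor binds there.

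Of the synthases that make prostaglandin E2 from the cyclooxygenase product, the inducible enzyme gene Ptges stood at 10.48, 9.93 and 10.13 in DPM and at 10.20, 9.86 and 9.75 in vehicle tumours (probe set 10481518). The groups overlapped, with the highest value in DPM replicate 1. The difference was 0.24 (SE 0.17, 95% interval -0.15 to 0.63, limma adjusted p = 0.9996), of opposite sign to that of Ptgs2. Leaving out DPM replicate 1 gave 0.09, and the difference was 0.37 if vehicle replicate 1 or DPM replicate 2 was left out. Ptges2, a synthase bound to the Golgi membrane (probe set 10471411), stood at 8.33, 8.48 and 8.60 in DPM and at 8.57, 8.23 and 8.68 in vehicle tumours. Its values were interleaved, and its difference was -0.02 (SE 0.14, 95% interval -0.34 to 0.29).

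Among the receptors, Ptger4, which encodes the receptor EP4 that raises cyclic AMP (probe set 10427461), stood at 8.71, 8.91 and 8.63 in DPM tumours. In vehicle tumours it stood at 8.96, 9.43 and 9.02. The groups lay apart by a narrow margin, between DPM replicate 2 and vehicle replicate 1, and vehicle replicate 2 was the highest. The means were 8.75 ± 0.15 and 9.14 ± 0.25 (SD, n = 3 each), or 0.766 times the vehicle level. The difference was -0.39 (SE 0.14, 95% interval -0.72 to -0.05, limma adjusted p = 0.9996). Without vehicle replicate 2 it was -0.24 (SE 0.12), smaller by over 1.5 times.

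Ptger2 encodes EP2, the other receptor that raises cyclic AMP (probe set 10414271). It stood at 7.57, 7.80 and 7.71 in DPM and at 7.88, 7.68 and 7.81 in vehicle tumours, and the groups overlapped. Its difference of -0.09 had a 95% interval of -0.33 to 0.15, so that a decrease as large as the estimate for Ptger4, -0.39, lay outside the interval. Leaving out 1 array moved the value between -0.03, without DPM replicate 1, and -0.15, without vehicle replicate 2. The Ptger2 probe set was dim, at a mean of 7.74 over the 6 arrays, and a filter at the 50th percentile removed it. Dim probe sets can understate a change. Ptger2 and Ptger4 were not tested against each other, and their intervals overlap.

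Ptger1, whose receptor EP1 signals through calcium (probe set 10573210), stood at 8.36, 8.20 and 7.90 in DPM and at 8.17, 8.22 and 7.94 in vehicle tumours, and both groups had their lowest value in replicate 3. Its difference was 0.04 (SE 0.14, 95% interval -0.28 to 0.36). Ptger3, whose receptor EP3 lowers cyclic AMP (probe set 10497079), stood at 7.33, 7.38 and 7.15 in DPM and at 7.31, 7.29 and 7.43 in vehicle tumours. Its difference was -0.06 (SE 0.10, 95% interval -0.29 to 0.18). Its mean of 7.31 over the 6 arrays was close to the filter at 7.24, and dim probe sets can understate a change.

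Hpgd, the dehydrogenase that inactivates prostaglandin E2 (probe set 10571840), stood at 8.54, 8.09 and 7.96 in DPM and at 8.44, 9.05 and 8.54 in vehicle tumours. DPM replicate 1 lay within the vehicle range, and vehicle replicate 2 was the highest of the 6. The means were 8.20 ± 0.30 and 8.68 ± 0.33 (SD, n = 3 each), or 0.718 times the vehicle level. The difference was -0.48 (SE 0.20, 95% interval -0.94 to -0.01, limma adjusted p = 0.9996). Without vehicle replicate 2 it was -0.29 (SE 0.18), smaller by over 1.5 times.

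Slco2a1, the carrier that brings prostaglandins into cells for breakdown (probe set 10588263), stood at 12.07, 12.04 and 11.48 in DPM and at 11.58, 11.18 and 11.59 in vehicle tumours. DPM replicates 1 and 2 were above all vehicle tumours, while DPM replicate 3 lay among them. The means were 11.86 ± 0.33 and 11.45 ± 0.23 (SD, n = 3 each), or 1.33 times the vehicle level. The difference was 0.41 (SE 0.18, 95% interval -0.003 to 0.83, limma adjusted p = 0.9996), and it was 0.68 (SE 0.15) without both arrays numbered 3. The carrier and the enzyme that act together in clearing prostaglandin E2 thus had differences of opposite sign, neither of which passed.

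**Figure D2:**
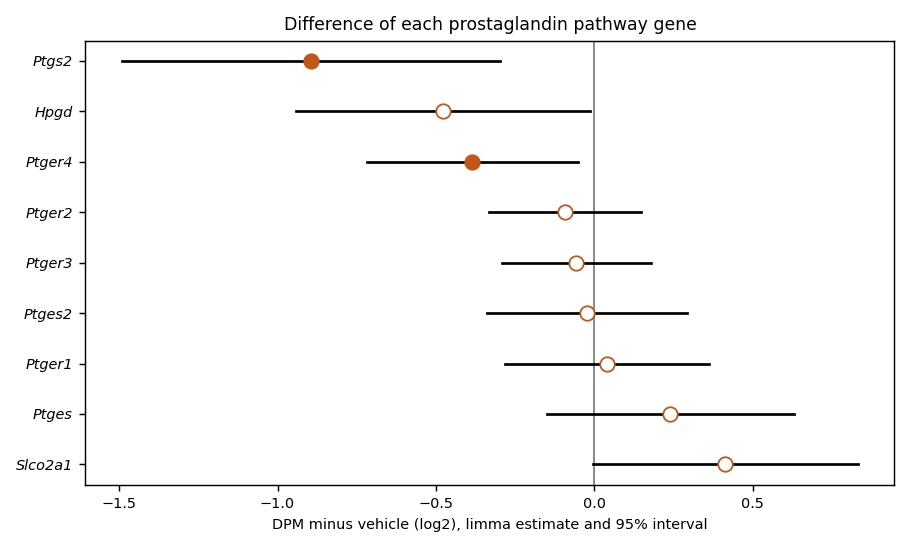
DPM minus vehicle difference (log2) of each of the 9 genes with its 95% interval from the limma fit. Filled points mark the genes whose groups do not overlap. The estimates run from -0.89 for Ptgs2 to 0.41 for Slco2a1, and the interval of Slco2a1 just reaches 0.

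Across processing settings the signs of Ptgs2, Ptger4, Hpgd, Slco2a1, Ptges and Ptger2 held, while Ptges2, Ptger1 and Ptger3 took either sign. The range over 18 settings was -1.10 to -0.43 for Ptgs2, -0.47 to -0.24 for Ptger4 and 0.28 to 0.68 for Slco2a1. For Hpgd it was -0.65 to -0.29 over 17 settings, since the stricter filter removed it. Ptgs2 and Ptger4 were again the members whose groups lay apart with median centring, beside 5.19% of all genes, and with no normalisation between arrays, beside 3.81%.

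**Figure D3:**
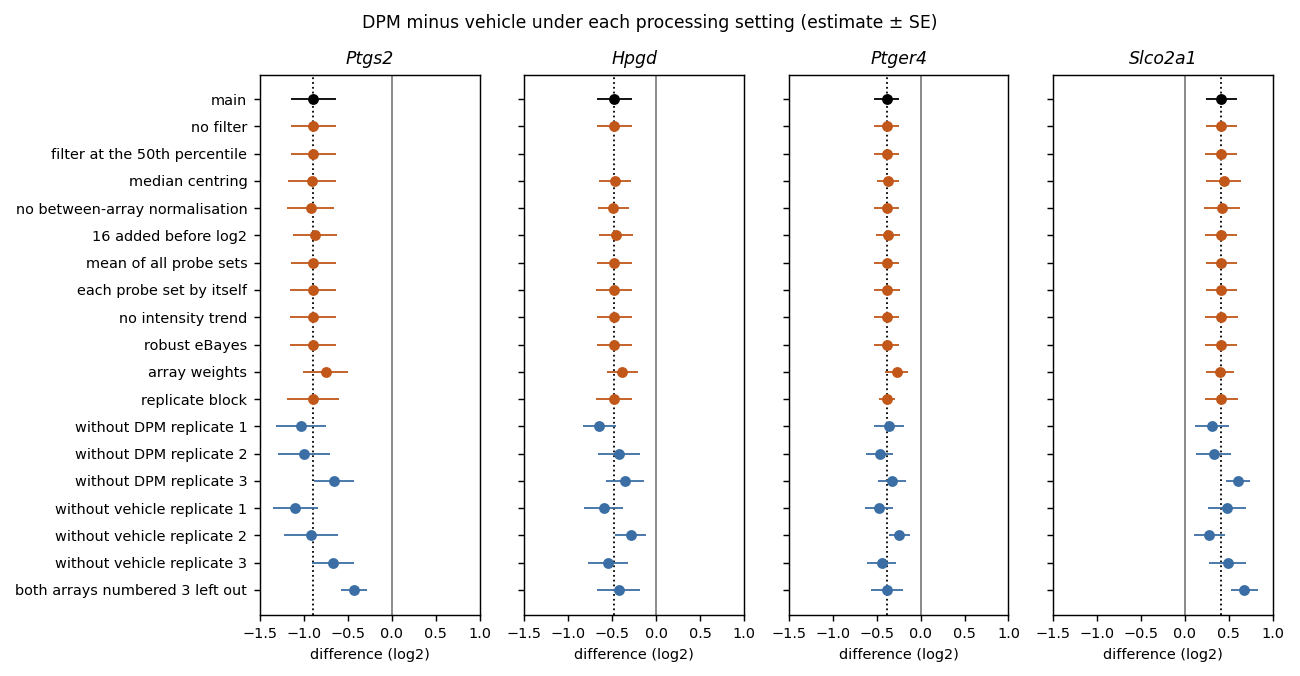
DPM minus vehicle difference (log2, point) with its SE (line) for the 4 genes farthest from 0, under the settings of the main fit (black), other processing (orange) and arrays left out (blue). The dotted line is the main value. All points of Ptgs2, Hpgd and Ptger4 lie below 0 and all of Slco2a1 above it, and Ptgs2 comes closest to 0 when both arrays numbered 3 are left out.

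Cell type markers varied between the same tumours, and their part in the differences was not tested. Of the 9 fibroblast markers, all 8 over the filter had lower means in DPM tumours, beside 49.7% of all genes. The 9 averaged 8.83 to 9.68 on DPM and 9.51 to 9.68 on vehicle arrays. Their lowest average was in DPM replicate 3, which was also lowest for Ptgs2, Ptger4 and Hpgd. The same array was lowest for Ptger1 and Ptger3, which hardly differed between groups, and for the macrophage, adipocyte and T cell averages. All 8 basal epithelial markers had lower means in DPM tumours, beside 49.7% of all genes. They averaged 8.99 to 9.27 against 9.41 to 9.63 on vehicle arrays, without overlap. Singly, their differences were uneven, from -0.77 for Krt14 to -0.004 for Myh11. Of the 8, 2 had groups that lay apart, beside 6.97% of all genes. The 10 macrophage markers, 8 of them with lower means in DPM beside 49.7% of all genes, averaged 9.30 to 9.67 and 9.41 to 9.65. Groups lay apart for 2 of the 10, 1 lower and 1 higher in DPM, beside 6.97% of all genes. The 9 endothelial markers averaged 8.69 to 8.97 and 8.68 to 8.87. Adipocyte markers averaged 7.71 to 8.97 on DPM arrays, highest in replicate 1, and 7.88 to 8.28 on vehicle arrays. The 10 neutrophil markers, 7 of them over the filter, averaged 7.75 to 7.93 and 7.77 to 7.85. That average takes in Ltf, at a mean of 12.46, and is not taken as a measure of neutrophil content. The 7 T cell markers with a probe set, 4 of them over the filter, averaged 7.34 to 7.39 and 7.42 to 7.47, again without overlap. Taken singly, 0 of those 4 had groups that lay apart, beside 6.97% of all genes, and 4 genes are too few to set against that share. Mast cell markers averaged 7.18 to 7.50 and 7.28 to 7.46, with 3 of 8 over the filter. Those 3 included Kit, at a mean of 12.01, which is also in the luminal list, so the average is not specific to mast cells. Skeletal muscle markers averaged 7.87 to 8.54 and 7.72 to 8.54. Markers under the filter at 7.24, such as Ms4a2 at a mean of 5.21, have no known distance from background.

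Upstream of the cyclooxygenases, 17 genes of arachidonic acid release were tested and none passed, 9 with higher and 8 with lower means in DPM tumours and a median difference of 0.01. Mgll, a lipase that frees arachidonic acid from an endocannabinoid, stood at 10.48, 10.82 and 10.68 in DPM and at 10.34, 9.80 and 10.02 in vehicle tumours. Its groups did not overlap, and the difference was 0.61 (SE 0.15, limma adjusted p = 0.953). Anxa1, which encodes annexin A1, an inhibitor of phospholipase A2, differed by -0.45 (SE 0.19), also without overlap. Groups lay apart for 3 of the 17, beside 6.97% of all genes. The other was Pla2g4e, a phospholipase named after its value was seen, at -0.12. Of the 17, 2 had an unadjusted p under 0.05 in limma, beside 3.87% of all genes. Pla2g7, a secreted phospholipase that breaks down platelet-activating factor, differed by -0.42 (SE 0.21). Pla2g4a, the cytosolic phospholipase that supplies cyclooxygenases and named here after its value was seen, averaged 10.03 ± 0.52 and 10.49 ± 0.15, with overlapping groups.

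In the branches beside prostaglandin E2 no gene differed by more than 0.31 log2 units. None of 8 other prostanoid synthase genes passed, 3 having higher and 5 lower means in DPM. Their smallest p-values belonged to the reductase gene Akr1b8 at -0.17 (SE 0.14), the prostaglandin D synthase gene Ptgds at 0.11 (SE 0.10) and the co-chaperone gene Ptges3 at -0.09 (SE 0.09). Receptors for the other prostanoids and their regulator gave 0 of 6, with 3 in each direction. Ptgfrn, a regulator of the prostaglandin F receptor, differed by -0.09, the D receptor gene Ptgdr by 0.04 and the prostacyclin receptor gene Ptgir by 0.04. Of 7 other breakdown and transport genes 0 passed, 4 with higher and 3 with lower means, led by the carrier gene Slco2b1 at 0.12 (SE 0.10) and the reductase genes Ptgr2 at 0.11 and Ptgr1 at -0.13. The lipoxygenase and leukotriene branch gave 0 of 12, with 8 higher and 4 lower means and a median of 0.06. Ephx2, a hydrolase of fatty acid epoxides, differed by 0.31 (SE 0.20), the lipoxygenase gene Alox15 by 0.16 and the leukotriene-processing gene Ggt5 by -0.18. In these 4 groups no gene had an unadjusted p under 0.05 in limma, beside 3.87% of all genes, or groups that lay apart, beside 6.97%.

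Genes listed as inducers of Ptgs2, modulators of these or regulators of its transcript had lower means in DPM tumours for 16 of 21 tested. Over all genes the share was 49.7%. The median difference was -0.10, against 0.00055 over all genes. The list mixes genes that raise Ptgs2 with genes that lower it, so this count has no single meaning for its level. None of the 21 passed, and 1 had an unadjusted p under 0.05 in limma, beside 3.87% of all genes. That gene was Jun, a subunit of AP-1, at 10.97, 10.79 and 10.59 in DPM and at 11.21, 11.17 and 10.90 in vehicle tumours, which gave a difference of -0.31 (SE 0.13, adjusted p = 0.9996). DPM replicate 1 exceeded vehicle replicate 3, so the groups overlapped. The immediate early gene Egr1 differed by -0.36 (SE 0.17) and Junb, another AP-1 subunit, by -0.22 (SE 0.13). Another 2 genes are named after their values were seen. The immediate early gene Fos varied widely within groups, at 9.42 ± 0.46 and 9.78 ± 0.77, and Il1b, a cytokine that induces Ptgs2, averaged 7.86 ± 0.27 and 8.24 ± 0.42.

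Cyclic AMP response genes downstream of the receptors gave 0 of 15, with 9 higher and 6 lower means in DPM and a median of 0.05. Their members went opposite ways. Groups lay apart for 1 of the 15, beside 6.97% of all genes, and 2 had an unadjusted p under 0.05 in limma, beside 3.87%. The clock gene Per1 stood at 10.97, 11.26 and 11.10 in DPM and at 10.83, 9.96 and 10.71 in vehicle tumours, without overlap, and differed by 0.61 (SE 0.22, limma adjusted p = 0.9996). Rgs2, a brake on G protein signalling, stood at 8.72, 9.003 and 7.61 in DPM and at 9.61, 9.73 and 8.72 in vehicle tumours, and differed by -0.91 (SE 0.39). Its lowest value was in DPM replicate 3, and the groups overlapped, since vehicle replicate 3 lay below DPM replicates 1 and 2. The kinase gene Sik1 differed by 0.37 (SE 0.24).

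**Figure D4:**
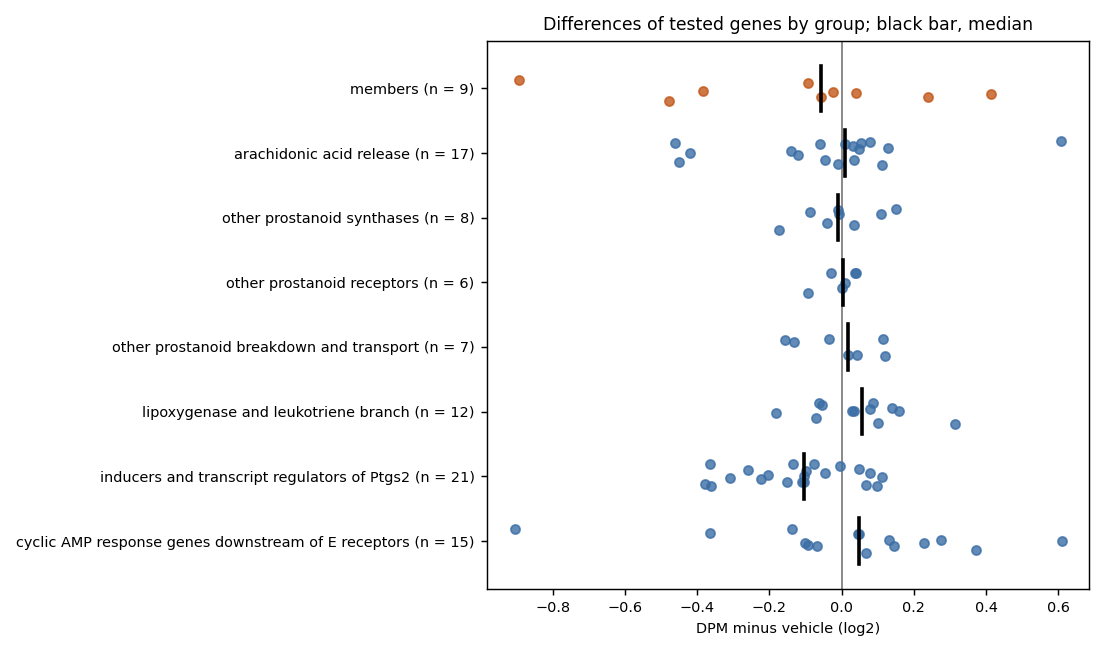
DPM minus vehicle difference (log2) of every tested gene in the 9 members (orange) and in 7 groups of related genes (blue), with the median of each group as a black bar. Points are jittered vertically. Medians lie between -0.10, for the inducers and transcript regulators of Ptgs2, and 0.06, and the points farther than 0.4 from 0 belong to the members, arachidonic acid release and cyclic AMP response genes.

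The genes with profiles nearest to the 3 most variable members were found by the root mean square difference of log2 levels, each centred on its own mean over the 6 arrays. Nearest to Ptgs2 were Itgb3, an integrin subunit, at 0.145, Loxl4, a lysyl oxidase, at 0.157 and Cd200, a surface glycoprotein, at 0.188, where the median of all genes was 0.579. All 3 shared the low value in DPM replicate 3 and the high value in vehicle replicate 3. Nearest to Hpgd were the stress response genes Gadd45b at 0.101 and Hspa1a at 0.105, which has a near-identical copy that could share its probes, and the adipokine gene Rarres2 at 0.108, against a median of 0.369. Nearest to Slco2a1 were Herpud1, of protein quality control in the endoplasmic reticulum, at 0.101, Vat1 at 0.112 and the mucin gene Muc1 at 0.117, against 0.337. The genes were chosen for nearness, so distances far under the median follow from that choice. Likeness over 6 arrays is a description of these tumours and says nothing on shared control.

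**Figure D5:**
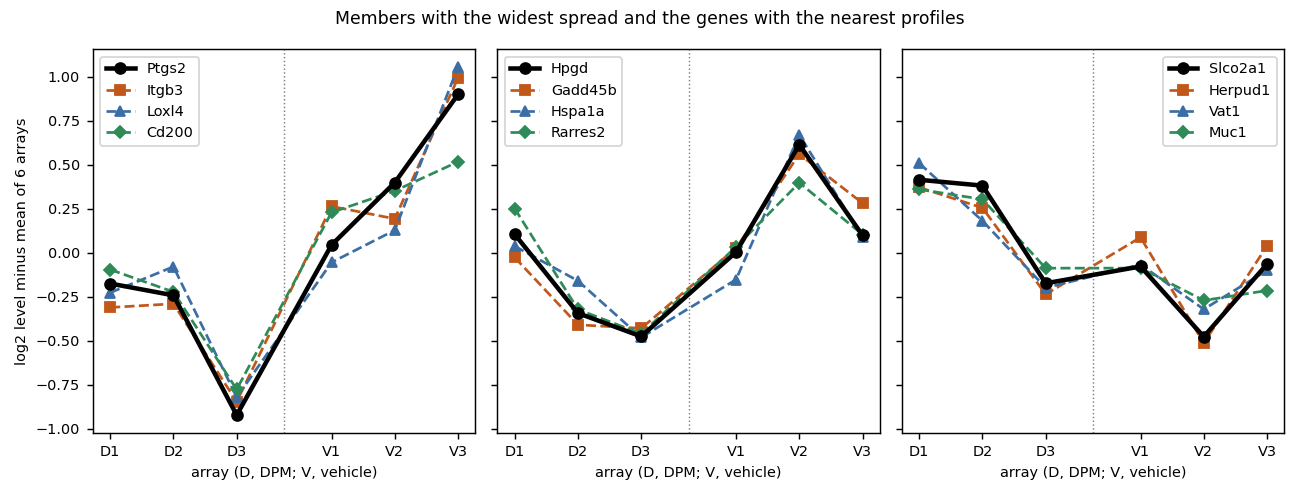
Log2 level minus the mean of the 6 arrays (vertical axis) on each array (D1 to D3, DPM; V1 to V3, vehicle) for Ptgs2, Hpgd and Slco2a1 (black) and the 3 genes nearest to each (colours). Ptgs2 and its neighbours have their lowest point in DPM replicate 3 and their highest in vehicle replicate 3, and Hpgd and its neighbours peak in vehicle replicate 2.

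Over the 6 arrays the members fell into no single order. Ptger4 and Hpgd were both highest in vehicle replicate 2 and lowest in DPM replicate 3, with a correlation of 0.812 (Pearson r across 6 arrays that share the treatment groups, a description only). Slco2a1 was lowest where those genes were highest, in vehicle replicate 2. Ptges and Slco2a1 were both highest in DPM replicate 1. For 8 of the 9 members, Ptgs2 being the exception, both ends of the 95% interval were closer to 0 than 1 log2 unit, as they were for 14638 of the 14953 genes tested.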

How the data were processed

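Biotin-labelled RNA was hybridised to Affymetrix arrays, per the labels' protocols. The deposited table gives linear intensities in whole numbers for 35556 probe sets on 6 arrays, and the authors' background correction, probe summary and scaling were not found in the labels. After a floor of 1, log2 intensities were quantile-normalised, since deposited quantiles differed. GEO's platform annotation named 1 gene for 21789 probe sets. Symbols followed Entrez identifiers in RefSeq (GRCm38.p6). The probe set with the highest mean stood for each gene, and genes under the 25th percentile of mean level (4985) were left out. DPM was compared with vehicle in limma 3.58.1 (R 4.3.3, lmFit, then eBayes with trend), by two-sided tests adjusted over 14953 genes by Benjamini-Hochberg, with a threshold of 0.05. With 3 arrays a group, the number of arrays limits precision. The code of the fit was checked on simulated data with independent noise and known changes, which does not test the results for these tumours.

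Members and lists were chosen with earlier results of these data known, so they are described by counts. Named were all members, the 3 genes of each pathway list with the smallest p, and the 3 nearest profiles of the 3 most variable members. Promoter windows came from RefSeq for 8 of the 9 measured members. Alternatives covered filters, normalisation, probe set summary, variance prior, array weights, a replicate block and arrays left out.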

Additional observations from a re-analysis of the deposited data

How the results depend on the processing

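No gene and no member was called under any of the 18 alternatives in limma. There were 316 to 753 genes at an unadjusted p under 0.05 in the fits on genes, and 866 probe sets where each probe set was tested by itself. Of 158 member differences under alternatives, 150 kept the sign of the main value and 8 did not, all 8 with arrays left out and near 0. With 1 array left out, Ptges2 ran from -0.154 to 0.0673, Ptger1 from -0.0636 to 0.165 and Ptger3 from -0.103 to 0.0119. Without both arrays numbered 3, Ptges2 was 0.00076 and Ptger3 0.0536. The cause was not tested.

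The replicate numbers were shared between groups, but deviations of same-numbered arrays correlated at -0.12, 0.11 and 0.371, so the numbers were not taken as pairs. Of the DPM arrays, 1 of 3 correlated best with the vehicle array of its own number. With the replicate number as a block the fit called 0 genes and 0 members (723 genes at an unadjusted p under 0.05, smallest adjusted p of a member 0.828). No detection calls were used, so dim probe sets such as that of Ptger3 have no known distance from background.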
